A study of Mus musculus with 16 samples.

Results

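Expression of 9 genes of neutrophils and of suppressive myeloid cells was followed in mouse mammary adipose tissue by RNA-Seq. The genes were S100a8, S100a9, Retnlg, Csf3r, Itgam, Cd33, Ly6c2, Il4ra and Nos2. The set is defined by gene names with no threshold on a measured value, it was named with earlier results of these data known, and all 9 were found among the 23179 listed genes. The female mice were wild type C57BL/6NCrl (C57BL/6N in the labels), and 4 groups of 4 mice were profiled, 1 library per mouse. CON-LFD mice were kept on a control low-fat diet. DIO-HFD mice were made obese with a diet of 60% fat and remained on it. DIO-LFD mice were made obese in the same way and then changed to the low-fat diet, and DIO-VSG mice received vertical sleeve gastrectomy, in which part of the stomach is removed, together with the low-fat diet. CON-LFD, DIO-HFD and DIO-LFD mice had a sham operation. In all 4 groups, cells of E0771, an established mouse mammary cancer line, were injected into the 4th mammary fat pad 22 weeks after the first randomization, and the contralateral 9th fat pad was taken at the endpoint. Every group therefore carried a tumor, and values in tumor-free mice were not analysed here.

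Neutrophils are short-lived granulocytes that are made in the bone marrow under the control of granulocyte colony-stimulating factor and recruited to tissue by chemokines. In mice with tumors, immature neutrophils and monocytes accumulate, and those that restrain T cells are called myeloid-derived suppressor cells. Part of that restraint is attributed to arginine, which inducible nitric oxide synthase consumes and T cells need to proliferate. Interleukin-4 and interleukin-13 act on myeloid cells through their shared receptor chain, which Il4ra encodes.

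The libraries held between 46907377 and 57610899 reads over the listed genes, and the lowest read number of each of the 9 genes in a library lay between 6 for Retnlg and 2604 for Il4ra. S100a9 and S100a8 had at least 11 and 31 reads, so that counting error was largest for these 2 genes and Retnlg. The labelled tissue was present in every library, with 30428 to 123530.0 normalized counts of Adipoq, the adipocyte hormone adiponectin. The labels also give the line E0771 as cell type, which is the injected line and not the tissue profiled. Some libraries stood apart in cell type markers. CON-LFD replicates 2 and 4 and DIO-HFD replicates 2 and 3 were poor in lymphocyte transcripts, with B cell marker scores (the mean log2 deviation of the list's genes from the average library) of -5.67, -3.71, -2.47 and -4.40, against -0.16 to 2.33 in the other 12 libraries. This fat pad holds a lymph node, and its removal was not described. CON-LFD replicate 4 was rich in macrophage transcripts, with 18530.3 normalized counts of Adgre1 (F4/80) against 569 to 2914 elsewhere. DIO-LFD replicate 1 was rich in hemoglobin transcripts, with 51979 normalized counts of Hba-a1 against 2278 to 5852 elsewhere. DIO-HFD replicate 4 held 5443 normalized counts of Krt10, a skin keratin, against 70.2 to 304 elsewhere, the adipocyte marker score was -1.27 in DIO-HFD replicate 1 against -0.48 or higher elsewhere, and the muscle marker score was 3.77 in CON-LFD replicate 4, 5.72 in DIO-LFD replicate 4 and 3.15 in DIO-VSG replicate 2. In such bulk tissue, fewer cells of a type and less RNA per cell cannot be told apart.

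The 9 genes spanned a wide range of levels. Per kilobase of exon, their median over 16 libraries was 1047 normalized counts for Il4ra, 510.1 for Itgam, 349.9 for S100a9, 333 for Ly6c2, 211 for S100a8, 175 for Cd33, 106 for Csf3r, 76.5 for Nos2 and 33.6 for Retnlg. The means of S100a9 (776), S100a8 (448) and Retnlg (115) were far above their medians and ranked them higher, above Itgam, Ly6c2 and Nos2 in turn (579.5, 402 and 97.5). Il4ra also had the smallest ratio of highest to lowest library of the 9, with 4.65 times as many normalized counts in its highest as in its lowest. S100a8 varied 62.5 times between libraries, Retnlg 92.9 times and S100a9 263 times. DIO-VSG replicate 2 was the highest of all libraries for 4 of the 9 genes (S100a8, S100a9, Retnlg and Csf3r).

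Differences between groups were tested with limma on log2(normalized count + 1) in all 16 libraries, with Benjamini-Hochberg adjustment over 21218 genes in each comparison. Fold changes below are differences on this log2 scale, each with its standard error, and n was 4 mice per group throughout. At an adjusted P value below 0.05, 0 of the 9 genes were called in any of the 6 comparisons, and limma-voom on the recovered reads also called 0. The same threshold called 0.0377% of all genes in DIO-HFD versus CON-LFD, 0.00471% in DIO-LFD versus CON-LFD and 0% in the other comparisons. At an unadjusted P value below 0.05, the comparison that addressed obesity, DIO-HFD versus CON-LFD, held 2 of the 9 genes, both higher in DIO-HFD (Il4ra and Nos2). Over all genes this share was 12.9%, with 5.23% higher and 7.66% lower. DIO-VSG versus DIO-HFD, on surgical weight loss, held 1 (Nos2, lower after surgery), against 13.2% of all genes, 5.05% higher and 8.12% lower. DIO-LFD versus DIO-HFD, on dietary weight loss, held 0, against 8.53% of all genes, 5.37% higher and 3.16% lower. DIO-VSG versus DIO-LFD held 1 (Nos2, lower in DIO-VSG), against 9.71% of all genes, 4.3% higher and 5.41% lower. With CON-LFD as reference, DIO-VSG held 4 (S100a8, S100a9, Ly6c2 and Il4ra, all higher), against 17.8% of all genes, 10.2% higher and 7.55% lower. That number was 0 without CON-LFD replicate 4, 1 without DIO-VSG replicate 2 and 2 without CON-LFD replicate 1 or 2 or DIO-VSG replicate 4. DIO-LFD held 2 in comparison with CON-LFD (Il4ra and Nos2, both higher), against 6.26% of all genes, 3.23% higher and 3.03% lower, and 1 without CON-LFD replicate 1 or 3 or DIO-LFD replicate 1, 2 or 4. For the other comparisons, the number was 1 in DIO-HFD versus CON-LFD without CON-LFD replicate 1 or DIO-HFD replicate 1, 2 in DIO-VSG versus DIO-HFD without DIO-HFD replicate 1, and 2 in DIO-VSG versus DIO-LFD without CON-LFD replicate 4. It stayed 0 in DIO-LFD versus DIO-HFD without any 1 library.

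By sign alone, most fold changes against CON-LFD were above 0, while 0 of the 9 genes were called and in each of these comparisons all groups overlapped. Of the 9 fold changes against CON-LFD, 8 were above 0 in DIO-HFD (median 0.77, against 0.02 over all genes tested), 9 in DIO-LFD (median 0.81, against 0.02) and 7 in DIO-VSG (median 0.87, against -0.02). Over all genes tested, 52.7%, 53.1% and 47.8% of fold changes were above 0. These 3 comparisons share the CON-LFD libraries, and the signs of Csf3r, Itgam and Ly6c2 in DIO-HFD, of Cd33, Csf3r and Itgam in DIO-LFD and of Csf3r and Itgam in DIO-VSG turned without 1 library. Among the obese and weight loss groups the medians were 0.51 for DIO-VSG versus DIO-HFD, 0.05 for DIO-LFD versus DIO-HFD and 0.30 for DIO-VSG versus DIO-LFD, where the medians of all genes tested were 0.02, 0.01 and -0.02.

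**Figure D1:**
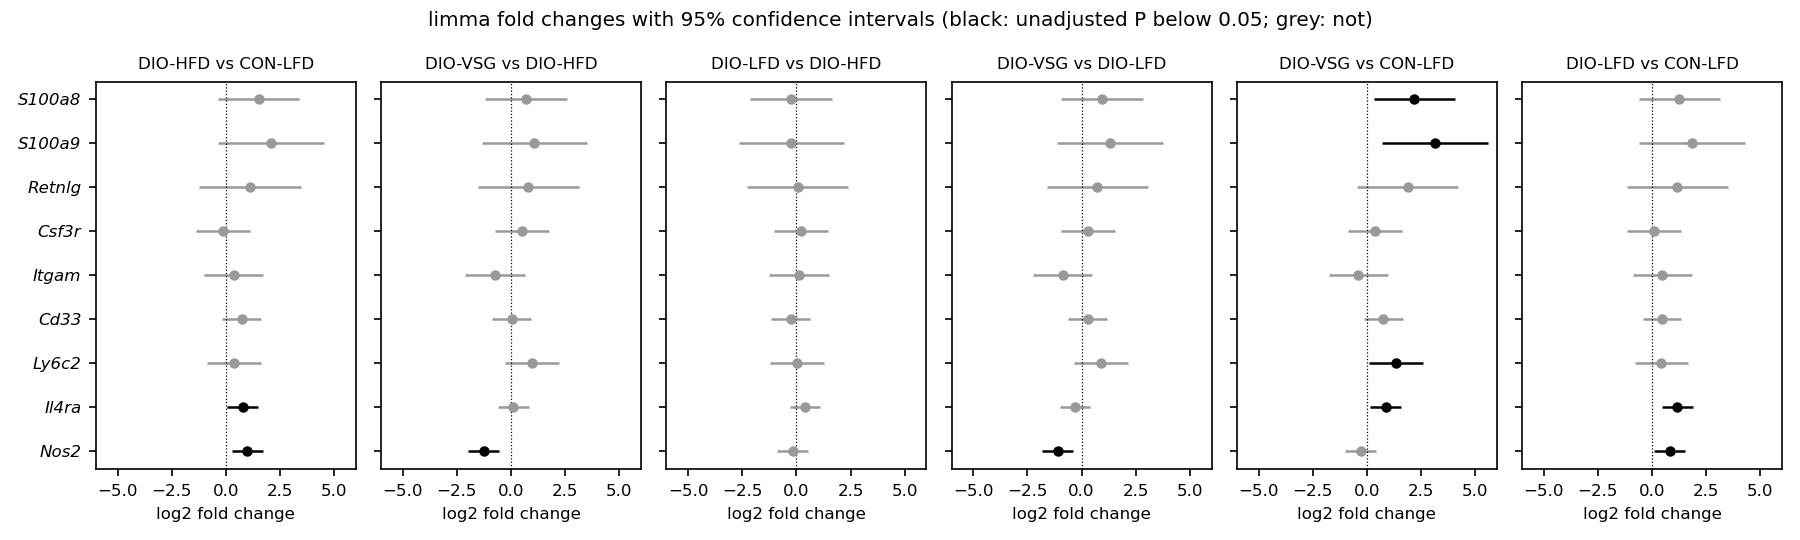
log2 fold changes of the 9 genes in 6 comparisons, from limma on log2(normalized count + 1), with bars for the 95% confidence interval and n = 4 mice per group. Black marks an unadjusted P value below 0.05 and grey the others: 4 genes are black in DIO-VSG vs CON-LFD, 2 each in DIO-LFD vs CON-LFD and DIO-HFD vs CON-LFD and none in DIO-LFD vs DIO-HFD.

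Nos2, which encodes inducible nitric oxide synthase, had the lowest unadjusted P value of the 9 genes in any comparison, that of DIO-VSG versus DIO-HFD. The gene lies at chr11:78920787-78960254 on the plus strand (GRCm38). It stood at 239, 384, 249 and 318 normalized counts in CON-LFD replicates 1 to 4, at 353, 693, 1119 and 401 in DIO-HFD, at 522, 793, 321 and 523 in DIO-LFD and at 280.1, 208, 249 and 229.7 in DIO-VSG. All 4 DIO-VSG libraries lay below all 4 DIO-HFD and all 4 DIO-LFD libraries and overlapped with CON-LFD. The means were 641 ± 352 (SD, n = 4) in DIO-HFD and 242 ± 30.7 in DIO-VSG, the group with the smallest spread. The log2 fold change of DIO-VSG versus DIO-HFD was -1.26 ± 0.33, 95% confidence interval -1.97 to -0.54 (unadjusted P = 0.00203, adjusted P = 0.246). Against DIO-LFD it was -1.09 ± 0.33, 95% confidence interval -1.81 to -0.38 (unadjusted P = 0.00544, adjusted P = 0.509). DIO-HFD exceeded CON-LFD by 0.98 ± 0.33, 95% confidence interval 0.26 to 1.69 (unadjusted P = 0.0109, adjusted P = 0.26), and DIO-LFD exceeded it by 0.81 ± 0.33, 95% confidence interval 0.10 to 1.53 (unadjusted P = 0.0286, adjusted P = 0.741). DIO-LFD and DIO-HFD differed by -0.16 ± 0.33, 95% confidence interval -0.88 to 0.55, and DIO-VSG and CON-LFD by -0.28 ± 0.33, 95% confidence interval -0.99 to 0.43. In the order of group means (DIO-HFD, DIO-LFD, CON-LFD, DIO-VSG), the first pair and the last pair of neighbours thus had intervals that included 0. Nos2 was the only one of the 9 genes whose groups did not overlap in DIO-VSG versus DIO-HFD, where this held for 6.59% of all genes, 2.37% with DIO-VSG higher and 4.22% with DIO-VSG lower. In DIO-VSG versus DIO-LFD, 2 of the 9 genes had groups that did not overlap (Ly6c2 higher and Nos2 lower), against 18.8% of all genes, 12.9% higher and 5.83% lower. In DIO-HFD versus CON-LFD, DIO-LFD versus DIO-HFD, DIO-VSG versus CON-LFD and DIO-LFD versus CON-LFD, 0 of the 9 genes had groups without overlap, against 4.76% of all genes (1.76% higher and 3% lower), 4.51% (3.01% higher and 1.5% lower), 7.02% (2.59% higher and 4.43% lower) and 3.53% (1.73% higher and 1.81% lower).

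Both highest DIO-HFD values of Nos2 came from replicates 2 and 3, which were poor in lymphocyte transcripts, and over 16 libraries Nos2 and the T cell marker score had a Pearson's r of -0.58. The r of Nos2 was -0.16 with the neutrophil score, -0.26 with the monocyte score, 0.07 with the macrophage score and 0.33 with the adipocyte score. The cells in which Nos2 differed were not identified. With the lymphocyte score as a covariate, the fold change of DIO-VSG versus DIO-HFD was -0.82 (adjusted P = 0.287) and that of DIO-HFD versus CON-LFD 1.13 (adjusted P = 0.089). A fit of only the 8 DIO-VSG and DIO-LFD libraries called Nos2 in that comparison (adjusted P = 0.0393), along with 1533 of all 21218 genes, and over 30 alternatives this adjusted P value ranged over 0.0393 to 0.795. Nos2 and Ly6c2 had a Pearson's r of -0.55, the lowest of any pair of the 9 genes. The genes most like Nos2 were BC022687 (r = 0.91), Gipr (r = 0.88), Mvp (r = 0.88), Epha2 (r = 0.86) and Cyth2 (r = 0.85), the highest r of 21218 genes, over libraries that share the tissue composition described above.

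A list of genes of arginine metabolism held 14 tested genes, of which 0 passed the adjusted threshold in any comparison. For this and the lists that follow, the shares of all genes at the unadjusted threshold are those given above for each comparison. Unadjusted P values below 0.05 numbered 6 higher and 0 lower in DIO-HFD versus CON-LFD (median 0.33). The arginine transporter gene Slc7a1 gave 0.80 ± 0.24 (adjusted P = 0.238), Ddah1, which degrades an inhibitor of nitric oxide synthases, 1.22 ± 0.41 (adjusted P = 0.254), and Gch1, which makes the synthase cofactor tetrahydrobiopterin, 0.46 ± 0.17 (adjusted P = 0.28). In DIO-VSG versus DIO-HFD there were 2 higher and 5 lower, with Ddah2 at -0.74 ± 0.21 (adjusted P = 0.256). In DIO-LFD versus DIO-HFD there were 3 higher and 1 lower, with the transporter gene Slc7a2 at 1.30 ± 0.42 (adjusted P = 0.456). Of the 14 fold changes there, 11 were below 0 (median -0.22), where 51.6% of all genes were above 0.

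**Figure D2:**
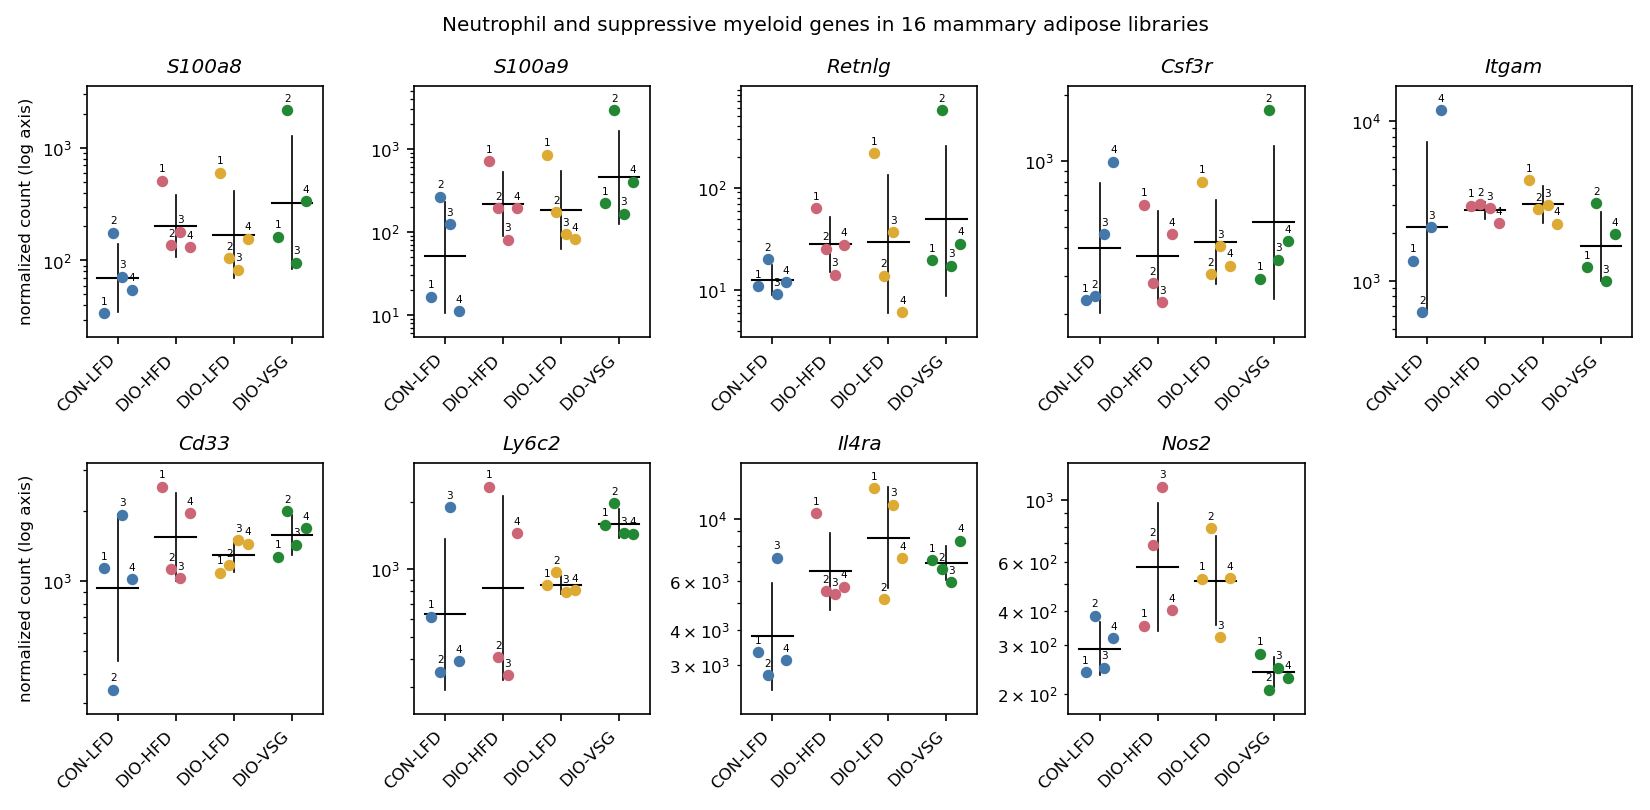
Normalized counts of the 9 genes in each library, on log axes that differ between panels. Points are single mice with the replicate number above each, horizontal bars the group mean on the log2 scale and vertical bars 1 SD on that scale (n = 4 mice per group). Nos2 in DIO-VSG sits between 208 and 280.1, below every DIO-HFD and DIO-LFD library, and DIO-VSG replicate 2 tops the panels of S100a8, S100a9, Retnlg and Csf3r.

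S100a8 and S100a9 encode the subunits of calprotectin, the most abundant cytosolic protein of neutrophils and a ligand of Toll-like receptor 4, and Retnlg encodes a resistin-like protein of granulocytes. S100a8 lies at chr3:90668978-90670035 on the plus strand, S100a9 at chr3:90692632-90695721 on the minus strand and Retnlg at chr16:48872621-48874496 on the plus strand. Because these 3 genes varied together over the libraries, their promoters are shown, from 250 bases before to 50 after the RefSeq start (GRCm38.p6), 5′ to 3′ on the strand of the gene. The windows are chr3:90668821-90669120 (plus) for S100a8, chr3:90695672-90695971 (minus) for S100a9 and chr16:48872358-48872657 (plus) for Retnlg. Capitals mark matches on either strand to TATAAA (the TATA box), TTNNGCAA (a core of the C/EBP site) or GAGGAAG (a PU.1 site).
S100a8: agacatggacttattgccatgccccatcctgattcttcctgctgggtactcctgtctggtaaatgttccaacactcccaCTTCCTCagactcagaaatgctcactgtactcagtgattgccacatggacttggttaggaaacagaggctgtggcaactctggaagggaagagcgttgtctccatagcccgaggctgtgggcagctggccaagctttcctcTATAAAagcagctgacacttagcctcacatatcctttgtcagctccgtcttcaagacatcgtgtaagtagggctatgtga
S100a9: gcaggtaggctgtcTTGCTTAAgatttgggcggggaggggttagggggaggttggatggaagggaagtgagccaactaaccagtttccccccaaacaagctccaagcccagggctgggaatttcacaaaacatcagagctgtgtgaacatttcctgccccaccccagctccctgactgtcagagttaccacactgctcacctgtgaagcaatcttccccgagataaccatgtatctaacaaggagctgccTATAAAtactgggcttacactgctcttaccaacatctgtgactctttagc
Retnlg: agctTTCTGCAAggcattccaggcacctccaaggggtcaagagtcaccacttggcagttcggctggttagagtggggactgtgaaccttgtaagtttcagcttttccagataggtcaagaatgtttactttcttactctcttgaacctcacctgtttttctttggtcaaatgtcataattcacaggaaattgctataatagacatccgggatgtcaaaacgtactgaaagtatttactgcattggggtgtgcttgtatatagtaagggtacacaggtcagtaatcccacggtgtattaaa
TATAAA stood at bases 221 to 226 of the S100a8 window and 251 to 256 of the S100a9 window, at the annotated start itself, and S100a8 also held GAGGAAG on the reverse strand at bases 80 to 86. TTNNGCAA was found in S100a9 (reverse strand, bases 15 to 22) and Retnlg (bases 5 to 12). The 3 motifs do not overlap here, and 13.6%, 10.8% and 13.6% of 32851 promoters of the same length held TATAAA, TTNNGCAA and GAGGAAG. Of the 9 genes, 8 had a promoter in the table, and GAGGAAG was also found in those of Csf3r, Itgam, Cd33 and Ly6c2. A match is a description of the letters and not of binding.

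S100a8 stood at 34.2, 176, 71.95 and 55.3 normalized counts in CON-LFD replicates 1 to 4, at 509, 137, 180.1 and 132 in DIO-HFD, at 601, 105, 82.9 and 156 in DIO-LFD and at 163, 2137, 95.5 and 335 in DIO-VSG. Any pair of the 4 groups overlapped, and 1 library in each obese or formerly obese group lay far above the rest of its group. For S100a9 the values were 16.6, 264, 124 and 11.1 in CON-LFD, 707, 194, 80.8 and 194 in DIO-HFD, 851, 172, 94.3 and 81.7 in DIO-LFD and 223, 2905, 165 and 402 in DIO-VSG. The same libraries were highest as for S100a8: DIO-HFD replicate 1, DIO-LFD replicate 1 and DIO-VSG replicate 2. Retnlg had 11.04, 20.1, 9.22 and 12.1 normalized counts in the CON-LFD mice, 62.9, 25.5, 14.2 and 27.9 in DIO-HFD, 216, 13.9, 37.2 and 6.13 in DIO-LFD and 19.7, 569, 17.4 and 28.6 in DIO-VSG. Against DIO-VSG replicate 2, every other DIO-VSG library held at most 28.6 normalized counts of Retnlg.

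The largest fold changes of calprotectin were those of DIO-VSG versus CON-LFD. S100a9 was higher in DIO-VSG by 3.15 ± 1.14, 95% confidence interval 0.72 to 5.59 (unadjusted P = 0.0148, adjusted P = 0.268) and S100a8 by 2.20 ± 0.88, 95% confidence interval 0.32 to 4.08 (unadjusted P = 0.0251, adjusted P = 0.268). Retnlg gave 1.89 ± 1.09, 95% confidence interval -0.44 to 4.22 (unadjusted P = 0.104, adjusted P = 0.345). DIO-HFD versus CON-LFD gave 1.51 ± 0.88 for S100a8, 2.07 ± 1.14 for S100a9 and 1.11 ± 1.09 for Retnlg, with adjusted P values of 0.491, 0.464 and 0.717. DIO-LFD versus CON-LFD gave 1.26 ± 0.88, 1.84 ± 1.14 and 1.17 ± 1.09 for the same genes, with adjusted P values of 0.873, 0.865 and 0.882. Between the weight loss groups and DIO-HFD the intervals were wide on both sides of 0: DIO-VSG versus DIO-HFD was 0.69 ± 0.88, 95% confidence interval -1.20 to 2.57 for S100a8, and DIO-LFD versus DIO-HFD was -0.25 ± 0.88, 95% confidence interval -2.13 to 1.63.

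A pair of libraries, DIO-LFD replicate 1 and DIO-VSG replicate 2, carried much of the level of these genes in their groups. As given above, DIO-LFD replicate 1 was rich in hemoglobin transcripts and DIO-VSG replicate 2 had a high muscle marker score. The part of such differences in these genes was not tested. Without both, DIO-VSG versus CON-LFD fell to 1.30 for S100a8 (adjusted P = 0.394), 2.26 for S100a9 (adjusted P = 0.394) and 0.73 for Retnlg (adjusted P = 0.522), and DIO-VSG versus DIO-HFD turned to -0.22 for S100a8 and -0.39 for Retnlg and was 0.19 for S100a9. DIO-LFD versus CON-LFD was then 0.65 for S100a8, 1.11 for S100a9 and 0.23 for Retnlg. That fit was chosen after seeing the data.

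The subunits of calprotectin are made in step in neutrophils, and the ratio of their reads fell into separate ranges. In 12 libraries S100a9 had 1.14 to 1.73 reads per read of S100a8. In the other 4 (CON-LFD replicates 1 and 4, DIO-HFD replicate 3 and DIO-LFD replicate 4) it had 0.484, 0.20, 0.448 and 0.523, and no library lay between these ranges. The lowest ratio rested on 11 reads of S100a9 and 55 of S100a8 in CON-LFD replicate 4. DIO-VSG was the group with the highest lower bound, with all 4 ratios between 1.199 and 1.73.

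Over 16 libraries S100a8 and S100a9 had a Pearson's r of 0.91, S100a8 and Retnlg 0.85 and S100a9 and Retnlg 0.80. Without DIO-LFD replicate 1 and DIO-VSG replicate 2 these pairs had r of 0.57 to 0.83. Mmp8, the neutrophil collagenase, was most like Retnlg of all genes (r = 0.92, 0.91 with group means removed) and second to S100a9 in likeness to S100a8 (r = 0.87). It stood at 414 normalized counts in DIO-VSG replicate 2 and 134 in DIO-LFD replicate 1, against at most 24.4 in the other 14 libraries. Il1b, the interleukin-1β gene, came next for S100a8 (r = 0.86) and Retnlg (r = 0.87). Gm37125 (r = 0.80) was also among the 5 highest for S100a8, and Nlrp12 (r = 0.85) and Il1f9 (r = 0.84) for Retnlg. For S100a9 the next genes were Zfp445, Gm10557, Polr1c and B130046B21Rik, with r of 0.85 to 0.86.

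Ly6g, the defining surface marker of mouse neutrophils, was near 0, with at most 28 reads (DIO-VSG replicate 2) and 12 or fewer in every other library, below the filter for testing. Stfa2l1 and Mrgpra2b, at up to 48 and 24 reads, were below it too, and 19 of the 22 genes of the neutrophil marker list were tested. The list's score, the mean log2 deviation of its genes from their average over libraries, ranged over -0.97 to -0.11 in CON-LFD, -0.71 to 1.02 in DIO-HFD, -0.33 to 0.75 in DIO-LFD and -0.35 to 1.46 in DIO-VSG. The score gives each gene the same weight, while Ltf had 1685 to 11933 reads and Lcn2 864 to 5204, against 1 to 130 for Camp. CON-LFD replicate 2, with the lowest score, had 18238 summed normalized counts of the list. DIO-VSG replicate 2, with the highest score, had 12342. Which cells made Ltf and Lcn2 here was not tested. DIO-VSG replicate 2 was the highest library for 7 of the 22 genes and DIO-HFD replicate 1 for 3. Pearson's r with the score was 0.78 for S100a8, 0.74 for S100a9, 0.74 for Csf3r and 0.72 for Retnlg. Of the 19 tested genes, 0 passed the adjusted threshold in any comparison. In DIO-VSG versus CON-LFD, 12 had fold changes above 0 and 7 below (median 0.65), where 47.8% of all genes were above 0. In DIO-VSG versus DIO-LFD, 7 were above 0 and 12 below (median -0.16), where 47.3% of all genes were above 0. Unadjusted P values fell below 0.05 for 4 higher and 1 lower in DIO-VSG versus CON-LFD, 0 higher and 2 lower in DIO-VSG versus DIO-HFD, 1 higher and 2 lower in DIO-VSG versus DIO-LFD, 1 higher and 0 lower in DIO-HFD versus CON-LFD, 1 higher and 0 lower in DIO-LFD versus DIO-HFD and 2 higher and 0 lower in DIO-LFD versus CON-LFD. Ngp, the neutrophilic granule protein gene, gave 4.73 ± 1.57 (adjusted P = 0.268), with 1.104, 7.42, 17.5 and 1.005 normalized counts in CON-LFD and 80.9, 631, 22.6 and 268 in DIO-VSG. Camp, the cathelicidin gene, gave 3.50 ± 1.06 (adjusted P = 0.268), with 2.21, 1.06, 8.302 and 2.01 in CON-LFD and 48.8, 58.5, 10.3 and 89.6 in DIO-VSG. For both of these granule genes all DIO-VSG libraries lay above all CON-LFD libraries, whose values were low (at most 17.5 for Ngp and 8.302 for Camp). DIO-HFD held 438, 4.43, 0 and 95.05 of Ngp and 120.3, 2.21, 2.18 and 18.03 of Camp, and overlapped with CON-LFD and with DIO-VSG for both genes. The part of neutrophil content in the values of S100a8, S100a9 and Retnlg was not tested.

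Other genes of the list had other patterns. Prtn3, the proteinase 3 gene of early granulocytes, was at 97.1, 148, 224 and 206 normalized counts in the CON-LFD mice, 435, 683, 186 and 298 in DIO-HFD, 254, 261, 394 and 105 in DIO-LFD and 121, 90.8, 92.4 and 179 in DIO-VSG. All DIO-VSG libraries lay below all DIO-HFD libraries, and the log2 fold change was -1.61 ± 0.44 (adjusted P = 0.246). Padi4, whose enzyme citrullinates histones when neutrophils release chromatin, was at 476, 425, 393 and 525 in DIO-LFD, 138, 303, 189.9 and 86.9 in DIO-HFD, 49.7, 56.2, 149 and 260.3 in CON-LFD and 148, 123, 167 and 551 in DIO-VSG, whose replicate 4 was the highest of all libraries. All DIO-LFD libraries lay above all DIO-HFD and CON-LFD libraries, at 1.47 ± 0.56 (adjusted P = 0.491) and 2.13 ± 0.56 (adjusted P = 0.472).

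Among the ligands that recruit neutrophils and drive their growth, Csf3, Cxcl2 and Il6 had few reads, whereas Cxcl12 had 11518 to 28082 and Csf1 1935 to 7026 per library. Csf3, granulocyte colony-stimulating factor, had 14 to 64 reads per library, and gave 0.91 ± 0.37 in DIO-LFD versus DIO-HFD and -0.93 ± 0.37 in DIO-VSG versus DIO-LFD, with adjusted P values of 0.528 and 0.509. The chemokine gene Cxcl2 had 4.41, 1.06, 4.61 and 8.04 normalized counts in the CON-LFD libraries and 17.6, 53.1, 74.2 and 10.7 in those of DIO-HFD, without overlap, and a fold change of 2.65 ± 0.93 (adjusted P = 0.265). Il6 had at most 22 reads in any library and gave 1.67 ± 0.60 in DIO-HFD, 2.11 ± 0.60 in DIO-LFD and 1.78 ± 0.60 in DIO-VSG against CON-LFD (adjusted P = 0.27, 0.512 and 0.268). The chemokine gene Cxcl1 gave -1.16 ± 0.40 in DIO-VSG versus DIO-HFD (adjusted P = 0.297). Of the 12 tested genes of recruitment, 0 passed the adjusted threshold in any comparison, and 4 higher and 0 lower had an unadjusted P value below 0.05 in DIO-HFD versus CON-LFD (median 0.75) and 1 higher and 2 lower in DIO-VSG versus DIO-HFD (median -0.66).

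Among the receptors of calprotectin and the other S100 genes, 16 were tested and 0 passed the adjusted threshold in any comparison. S100a1, a calcium sensor of muscle, had a fold change of the opposite sign to S100a8 and S100a9 in DIO-HFD versus CON-LFD, with -1.09 ± 0.27 (adjusted P = 0.185), and gave 1.11 ± 0.27 in DIO-LFD versus DIO-HFD (adjusted P = 0.32). Of 12 skeletal muscle markers, 12 had fold changes below 0 in the former (median -1.88) and 12 above 0 in the latter (median 1.99), and the part of muscle in the S100a1 values was not tested. S100a4 gave 1.21 ± 0.39 and -0.94 ± 0.39 in the same comparisons. The receptor gene Tlr4 gave -0.45 ± 0.20 in DIO-VSG versus DIO-HFD, and Cd14, its coreceptor, -0.93 ± 0.29 in DIO-VSG versus CON-LFD, with adjusted P values of 0.367 and 0.268.

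Csf3r encodes the receptor for granulocyte colony-stimulating factor, which neutrophils and their precursors carry, and lies at chr4:126024550-126044440 on the plus strand. Its values were 232, 242, 463 and 994 normalized counts in the CON-LFD mice, 634, 278, 227 and 464 in DIO-HFD, 806, 304, 409 and 333 in DIO-LFD and 290.4, 1708, 355 and 432 in DIO-VSG. All groups overlapped, and the highest libraries were DIO-VSG replicate 2 and CON-LFD replicate 4. The latter was the library rich in macrophage transcripts, and r of Csf3r with the macrophage score was 0.65 and with the neutrophil score 0.74. Its fold changes lay between -0.12 (DIO-HFD versus CON-LFD, adjusted P = 0.949) and 0.51 (DIO-VSG versus DIO-HFD, adjusted P = 0.656). The interval of DIO-HFD versus CON-LFD, -0.12 ± 0.58, 95% confidence interval -1.37 to 1.13, included 0. Cd244 (r = 0.85), a receptor of the SLAM family, and Nfe2 (r = 0.83), a transcription factor of megakaryocytes and granulocytes, were most like it, followed by Ms4a6c, AF251705 and Map3k8 (r of 0.82 to 0.83).

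Itgam encodes CD11b, the αM chain of the integrin Mac-1, which all neutrophils, monocytes and most macrophages carry. It lies at chr7:128062640-128118491 on the plus strand. In GENCODE M21, 65.2% of the 76-base windows of its transcripts are also in Gm49368, an overlapping annotated gene. Reads of Itgam could have been divided only if the authors' annotation held Gm49368 too, which was not established here. CON-LFD held 1341, 639, 2178 and 11690.3 normalized counts, DIO-HFD 2958, 3017, 2844 and 2306, DIO-LFD 4281, 2819.9, 2984 and 2286 and DIO-VSG 1224, 3054, 997 and 1964. CON-LFD thus held both the highest library (replicate 4) and the lowest (replicate 2), and DIO-VSG overlapped with every group. DIO-VSG lay -0.75 ± 0.64, 95% confidence interval -2.12 to 0.62 from DIO-HFD (unadjusted P = 0.261, adjusted P = 0.55) and -0.87 ± 0.64, 95% confidence interval -2.25 to 0.50 from DIO-LFD (unadjusted P = 0.194, adjusted P = 0.575). Against CON-LFD the fold changes were 0.36 for DIO-HFD, 0.48 for DIO-LFD and -0.39 for DIO-VSG, and these signs depended on CON-LFD replicates 2 and 4. Without replicate 2 the fold changes were -0.23, -0.11 and -0.98, and without replicate 4 they were 1.17, 1.29 and 0.42.

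Itgam had a higher r with the macrophage score than with the neutrophil score. Its r was 0.86 with the macrophage score and 0.35 with the neutrophil score, and among the granulocyte genes 0.60 with Csf3r, 0.21 with Retnlg, 0.09 with S100a8 and -0.15 with S100a9. The genes most like it were Slc11a1 (r = 0.97), a metal transporter of phagosomes, Hk3 (r = 0.94), Alox5ap (r = 0.94), Adgre1 (r = 0.94) and Lgmn (r = 0.93). Reads of Itgam per read of Itgb2, the shared β2 chain of leukocyte integrins, were 0.404 to 1.67 in CON-LFD, 0.371 to 1.13 in DIO-HFD, 0.661 to 1.101 in DIO-LFD and 0.233 to 0.526 in DIO-VSG, so that all DIO-VSG libraries lay below all DIO-LFD libraries in this ratio and overlapped with CON-LFD and DIO-HFD. Lymphocytes also carry Itgb2, and the T cell score was 1.33 to 2.01 in DIO-VSG and -0.33 to 0.73 in DIO-LFD, the part of which in this ratio was not tested. Macrophage scores ranged over -0.74 to 0.71 in DIO-VSG, 0.13 to 0.50 in DIO-HFD, -0.05 to 0.66 in DIO-LFD and -1.96 to 0.70 in CON-LFD. Of 19 tested macrophage genes, 16 had a fold change below 0 in DIO-VSG versus DIO-HFD (median -0.60) and 16 in DIO-VSG versus DIO-LFD (median -0.47), where 52.5% and 47.3% of all genes were above 0. Against CON-LFD, 17 were above 0 in DIO-HFD (median 0.46), 16 in DIO-LFD (median 0.29) and 8 in DIO-VSG (median -0.22), and 0 passed the adjusted threshold in any comparison. The part of macrophage content in the Itgam values was not tested.

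Among the other β2 integrin genes and their ligands, 11 were tested. Itgad, which encodes CD11d, an αD chain of macrophages, was at 13.2, 6.36, 90.4 and 79.4 normalized counts in the CON-LFD mice, 153, 685, 3424 and 117 in DIO-HFD, 96.1, 10.9, 20.01 and 33.7 in DIO-LFD and 76.8, 126, 35.9 and 30.5 in DIO-VSG. All DIO-HFD libraries lay above all CON-LFD and all DIO-LFD libraries, with replicates 2 and 3 far above the other 2, and its fold changes were 3.94 ± 1.08 (adjusted P = 0.215) and -3.91 ± 1.08 (adjusted P = 0.399), with -2.97 ± 1.08 in DIO-VSG versus DIO-HFD (adjusted P = 0.308). Tln1, whose protein talin activates integrins, gave 0.51 ± 0.14 in DIO-HFD versus CON-LFD, -0.43 ± 0.14 in DIO-LFD and -0.50 ± 0.14 in DIO-VSG versus DIO-HFD. Of the 11, 0 passed the adjusted threshold.

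Cd33, at chr7:43524216-43544428 on the minus strand, encodes a sialic acid-binding lectin (Siglec) of myeloid cells. It had 1143, 342, 1936 and 1019.9 normalized counts in the CON-LFD mice, 2550.2, 1127, 1030.3 and 1969 in DIO-HFD, 1089, 1171, 1502 and 1455 in DIO-LFD and 1276, 1998, 1440.0 and 1698 in DIO-VSG. All groups overlapped, CON-LFD replicate 2 was the lowest library and DIO-HFD replicate 1 the highest. DIO-HFD and DIO-VSG exceeded CON-LFD by similar amounts, 0.73 ± 0.42, 95% confidence interval -0.17 to 1.62 (unadjusted P = 0.104, adjusted P = 0.484) and 0.75 ± 0.42, 95% confidence interval -0.14 to 1.65 (unadjusted P = 0.0937, adjusted P = 0.333), and DIO-VSG and DIO-HFD differed by 0.02 ± 0.42, 95% confidence interval -0.87 to 0.92. Without CON-LFD replicate 2, DIO-HFD and DIO-VSG exceeded CON-LFD by 0.24 and 0.27. Cd33 had r of 0.88 with the monocyte score and 0.82 with the B cell score, and the genes most like it were Hpse (heparanase, r = 0.96), Cd80 (a T cell costimulator, r = 0.95), Gm26581, Adam19 and Gm15326 (r of 0.94 to 0.95). In the 4 lymphocyte-poor libraries it was at 342 to 1127 and in the other 12 at 1089 to 2550.2. With the lymphocyte score as a covariate, DIO-VSG versus CON-LFD was -0.10 and DIO-VSG versus DIO-HFD -0.61. A list of other Siglecs and of Ptpn6 and Ptpn11, phosphatases that bind to them, held 9 tested genes, of which 3 had an unadjusted P value below 0.05 in DIO-VSG versus CON-LFD: Siglecg (3.62 ± 1.52) and Cd22 (3.79 ± 1.60), which B cells carry, and Siglech (2.14 ± 0.94), of plasmacytoid dendritic cells. No other comparison had any. Of 14 monocyte markers tested, 4 higher and 1 lower passed the unadjusted threshold in DIO-VSG versus CON-LFD, among them Ms4a4c (2.68 ± 1.05), 0 higher and 3 lower in DIO-VSG versus DIO-LFD, and 0 the adjusted one in any comparison. Signs were divided in DIO-VSG versus CON-LFD, with 6 of the 14 above 0 and 8 below (median -0.10), where 47.8% of all genes were above 0.

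Ly6c2 encodes Ly-6C, which marks classical monocytes and monocytic suppressor cells and is also carried by some T cells and plasmacytoid dendritic cells. It lies at chr15:75108158-75111970 on the minus strand, and 9.32% of its 76-base windows are shared with its neighbour Ly6c1, so reads may be divided between them. Its values were 616, 351, 1893 and 389.9 normalized counts in the CON-LFD mice, 2326, 408, 339 and 1445 in DIO-HFD, 849, 974, 796 and 808 in DIO-LFD and 1582, 1967, 1452 and 1440.0 in DIO-VSG. The DIO-LFD libraries were close together and all below DIO-VSG, whereas CON-LFD and DIO-HFD each held libraries below all of DIO-LFD and libraries within or above the DIO-VSG range. DIO-VSG exceeded CON-LFD by 1.34 ± 0.58, 95% confidence interval 0.09 to 2.58 (unadjusted P = 0.0368, adjusted P = 0.268), DIO-HFD by 0.95 ± 0.58, 95% confidence interval -0.29 to 2.19 (unadjusted P = 0.123, adjusted P = 0.435) and DIO-LFD by 0.90 ± 0.58, 95% confidence interval -0.34 to 2.14 (unadjusted P = 0.142, adjusted P = 0.547). In a fit of only the 8 DIO-VSG and DIO-LFD libraries, the last of these had an adjusted P value of 0.0128, where 1533 of all 21218 genes were called, and over 30 alternatives it ranged over 0.0128 to 0.795.

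Ly6c2 had its highest r with lymphocyte marker scores. In the 4 lymphocyte-poor libraries it was at 339 to 408 normalized counts and in the other 12 at 616 to 2326, with no overlap. Its r was 0.95 with the T cell score and 0.92 with the B cell score, against 0.62 with the monocyte score and 0.70 with the neutrophil score. With the adipocyte score, r was -0.80 for Ly6c2 and -0.74 for Cd33. T cell scores ranged over -3.21 to 1.56 in CON-LFD, -3.34 to 2.09 in DIO-HFD, -0.33 to 0.73 in DIO-LFD and 1.33 to 2.01 in DIO-VSG. In DIO-VSG versus CON-LFD, 10 of 12 T cell markers and 12 of 12 B cell markers were higher at an unadjusted P value below 0.05, with median fold changes of 2.68 and 3.87. With the lymphocyte score as a covariate, the Ly6c2 fold change was 0.04 in DIO-VSG versus CON-LFD, -0.01 in DIO-VSG versus DIO-HFD and 0.37 in DIO-VSG versus DIO-LFD (adjusted P = 0.674). The lymphocyte score itself went with group, at 1.58 to 2.01 in DIO-VSG and -0.24 to 0.80 in DIO-LFD. This fit therefore cannot separate group from lymphocyte content, and the part of lymphocytes in the Ly6c2 values was not tested. The genes most like Ly6c2 were Pxk (r = 0.99), Cyb561a3, Rdh12, Ftx and Pgap1 (r = 0.99).

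Ly6c1, the close relative of Ly6c2 that endothelial cells carry, was at 3929, 8640.2, 4164 and 6839.9 normalized counts in CON-LFD and 3022, 4132, 3362 and 3637 in DIO-VSG, and DIO-VSG versus CON-LFD was -0.67 ± 0.29 (adjusted P = 0.268). Ly6c2 had 0.0406 to 0.0570 reads per read of Ly6c1 in the 4 lymphocyte-poor libraries and 0.113 to 0.774 in the other 12. The 8 tested relatives in the Ly6 family had 3 genes higher and 1 lower at the unadjusted threshold in DIO-VSG versus CON-LFD, among them Ly6i (2.18 ± 0.80) and Ly6d (1.06 ± 0.37), a marker of early B cells.

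**Figure D3:**
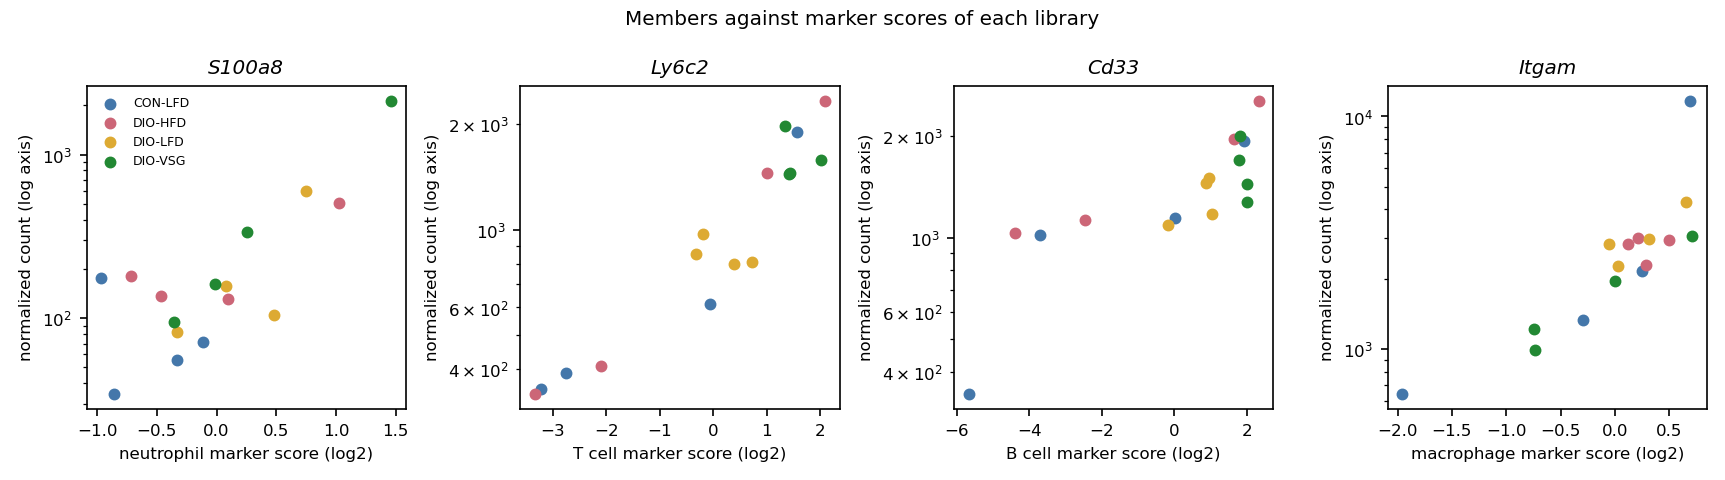
Normalized counts (log axes) of S100a8, Ly6c2, Cd33 and Itgam in 16 libraries against the marker score of 1 cell type each, in log2 units. Points are single mice, coloured by group: Ly6c2 rises with the T cell score (r = 0.95), Itgam with the macrophage score (r = 0.86), and the lowest Cd33 value, 342, is in the library with the lowest B cell score, -5.67.

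Il4ra encodes the receptor chain for interleukin-4 and interleukin-13. It lies at chr7:125552120-125579474 on the plus strand, overlaps the antisense gene Gm44876 and was the most abundant of the 9 genes per kilobase. Whether reads were counted by strand was not given in the sources used here. It stood at 3341, 2761, 7256 and 3132 normalized counts in the CON-LFD mice, 10435, 5514, 5384 and 5725 in DIO-HFD, 12832, 5173, 11232 and 7213 in DIO-LFD and 7096, 6619, 5945 and 8348 in DIO-VSG. Every library of the obese and formerly obese groups lay above 3 of the 4 CON-LFD libraries, and CON-LFD replicate 3 lay within their range. DIO-LFD exceeded CON-LFD by 1.17 ± 0.33, 95% confidence interval 0.46 to 1.88 (unadjusted P = 0.00323, adjusted P = 0.512), DIO-VSG exceeded it by 0.87 ± 0.33, 95% confidence interval 0.16 to 1.58 (unadjusted P = 0.0198, adjusted P = 0.268) and DIO-HFD by 0.77 ± 0.33, 95% confidence interval 0.06 to 1.48 (unadjusted P = 0.0353, adjusted P = 0.35). These 3 fold changes share the CON-LFD libraries. The obese and weight loss groups differed by 0.10 ± 0.33, 95% confidence interval -0.61 to 0.81 (DIO-VSG versus DIO-HFD), 0.40 ± 0.33, 95% confidence interval -0.31 to 1.11 (DIO-LFD versus DIO-HFD) and -0.30 ± 0.33, 95% confidence interval -1.01 to 0.41 (DIO-VSG versus DIO-LFD). Il4ra had r of 0.67 with the monocyte score, 0.62 with the B cell score and 0.60 with the T cell score. With the lymphocyte score as a covariate, the fold changes against CON-LFD were 0.90 for DIO-LFD, 0.42 for DIO-VSG and 0.65 for DIO-HFD, with adjusted P values of 0.252, 0.953 and 0.263. The genes most like Il4ra were Gm26716, Trmt112-ps2, Spsb3, Ier5 and Ctu2 (r of 0.87 to 0.90).

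Without CON-LFD replicate 3, Il4ra in DIO-VSG versus CON-LFD was at 1.18 with an adjusted P value of 0.0486, and this was the only fit without 1 library that called any of the 9 genes. That fit called 878 of all 21218 genes in this comparison. Over 30 alternatives the adjusted P value of Il4ra there ranged from 0.0213 to 0.953. Array weights, by which limma lowers the weight of libraries that vary more, called Il4ra in DIO-HFD (adjusted P = 0.0373) and DIO-VSG (adjusted P = 0.0213) against CON-LFD, S100a9 in the same comparisons (adjusted P = 0.0325 and 0.0198), Ly6c2 in both (adjusted P = 0.0256 and 0.0236), Cd33 in DIO-HFD versus CON-LFD (adjusted P = 0.0249) and Nos2 in DIO-VSG versus DIO-HFD (adjusted P = 0.0206). The same weights called 4196 of all 21218 genes in DIO-HFD versus CON-LFD, 4226 in DIO-VSG versus CON-LFD and 3739 in DIO-VSG versus DIO-HFD.

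Of 17 tested genes of the interleukin-4 and interleukin-13 axis, 0 passed the adjusted threshold. The ligands were at the edge of detection, with 16 to 37 reads of Il4 and at most 15 of Il13 per library. Stat6, the transcription factor downstream of Il4ra, was at 6783, 6195, 8183 and 9073 normalized counts in the CON-LFD libraries and 9700.3, 10045, 10554 and 8932 in those of DIO-HFD, at 0.39 ± 0.12 (adjusted P = 0.237), and gave -0.30 ± 0.12 in DIO-VSG and -0.33 ± 0.12 in DIO-LFD versus DIO-HFD. Its target Retnla gave -1.77 ± 0.72 in DIO-VSG versus DIO-HFD (adjusted P = 0.335), and Chil3 2.53 ± 1.19 in DIO-LFD versus CON-LFD, where DIO-LFD replicate 1 alone held 2331 normalized counts against 13.2, 42.4, 34.1 and 6.03 in CON-LFD. Il2rg, a partner chain that lymphocytes carry, gave 1.93 ± 0.71 in DIO-VSG versus CON-LFD (adjusted P = 0.268).

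Of the further genes used to describe suppressive myeloid cells, 24 were tested and 0 passed the adjusted threshold. Ido1, which degrades tryptophan, was lowest in DIO-HFD among the obese and formerly obese groups, at 888, 464, 1893 and 739.9 normalized counts, against 2257, 9912, 3361 and 8081 in DIO-LFD and 3456, 2968, 4174 and 7278 in DIO-VSG, with no overlap. Its fold changes versus DIO-HFD were 2.51 ± 0.83 (adjusted P = 0.463) and 2.27 ± 0.83 (adjusted P = 0.309), and CON-LFD spanned 181, 2256, 5429 and 884. Ptgs2, the cyclooxygenase-2 gene, gave -1.26 ± 0.54 in DIO-VSG versus DIO-HFD and -1.26 ± 0.54 versus DIO-LFD. Clec4e, a pattern receptor of activated myeloid cells, gave 1.89 ± 0.72 in DIO-VSG and 1.67 ± 0.72 in DIO-LFD against CON-LFD. The transcription factor gene Cebpb gave -0.65 ± 0.29 in DIO-HFD versus CON-LFD and 0.64 ± 0.29 in DIO-LFD versus DIO-HFD. With the unadjusted threshold of 0.05, this list had 0 higher and 1 lower in DIO-HFD versus CON-LFD, 2 higher and 1 lower in DIO-VSG versus DIO-HFD, 3 higher and 0 lower in DIO-LFD versus DIO-HFD, 0 higher and 2 lower in DIO-VSG versus DIO-LFD and 3 higher and 0 lower in DIO-LFD versus CON-LFD. In DIO-VSG versus CON-LFD there were 5 higher and 0 lower of 24 (median 0.51), where 10.2% of all genes were higher and 7.55% lower.

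Of the 36 pairs of the 9 genes, 27 had an r above 0 and 9 below, and 5 exceeded 0.7: the 3 pairs among S100a8, S100a9 and Retnlg, Retnlg with Csf3r (0.71) and Cd33 with Ly6c2 (0.78). Without DIO-LFD replicate 1 and DIO-VSG replicate 2, r of Retnlg with Csf3r was 0.22 and that of Cd33 with Ly6c2 0.77. Il4ra had 0.62 with Cd33, 0.58 with Ly6c2 and 0.54 with S100a9 (0.76, 0.67 and 0.54 without both libraries), and Nos2 had r below 0 with all of the other genes but Itgam (0.23), the lowest being those with Ly6c2 (-0.55), Csf3r (-0.39) and Cd33 (-0.30). With group means removed, r of Nos2 was -0.69 with Cd33, -0.68 with Ly6c2, -0.60 with Il4ra, -0.42 with Csf3r and -0.08 with Itgam. These are descriptions over 16 libraries that share the differences in tissue composition given above.

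**Figure D4:**
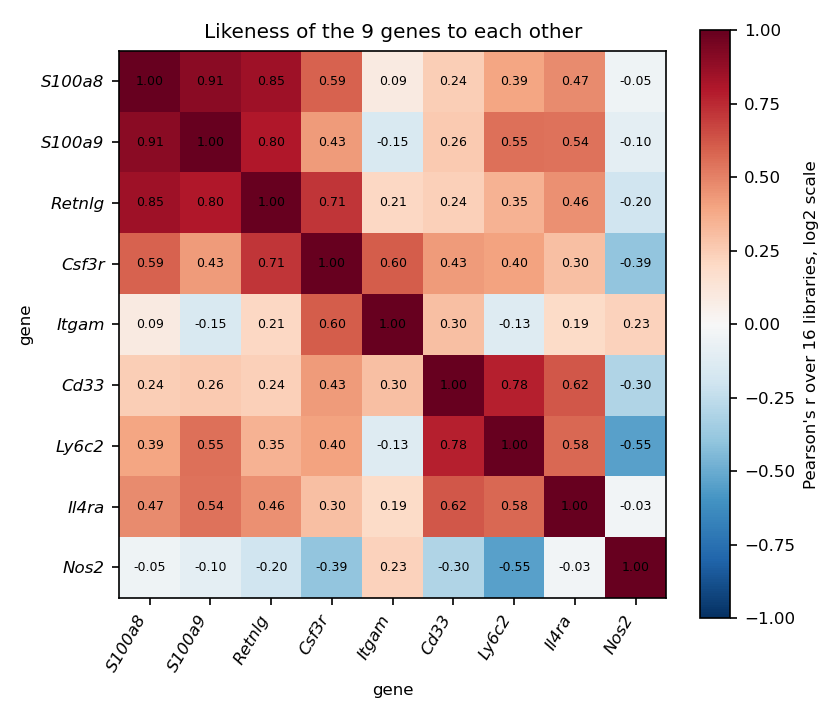
Pearson's r of each pair of the 9 genes over 16 libraries, on log2(normalized count + 1), with the value in each square and the color scale at the right. S100a8, S100a9 and Retnlg form a block of 0.80 to 0.91 and Cd33 and Ly6c2 a pair of 0.78, and the lowest value, -0.55, is that of Nos2 and Ly6c2.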

How the data were processed

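RNA from the mammary fat pad of 16 mice was sequenced by the authors after a stranded total RNA preparation. Their methods name STAR, salmon and DESeq2 on GRCm38, whereas the submitters' processing notes name TopHat2 2.0.7, HTSeq 0.5.3p9 and DESeq2 on mm10, so the aligner is uncertain. The deposited table holds log2 values made by the authors with the variance-stabilizing transformation of DESeq2 (5.36 to 21.8 over 23179 genes). The transformation was inverted to normalized counts, and 100% of the values times the size factor of their library (0.904 to 1.22) came within 0.01 of whole reads. All value columns had a sample (0 without). Groups came from the labels, and each library is a separate mouse. No batch is named in the labels. Each pair of replicates differed by more than counting noise (chi-square per gene of 64.4 or more).

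A gene was tested if 4 or more libraries reached 10 normalized counts (21218 genes). limma 3.58.1 (R 4.3.3) with a trended prior was fitted to log2(normalized count + 1), a scale that understates changes of low genes, with a term for group and no other, in all 16 libraries. The adjustment was Benjamini-Hochberg within each of 6 comparisons, with a threshold of 0.05. All tests were two-sided. The genes and the gene lists were chosen with earlier results of these data known, and 1 of the 10 named genes is not reported here. Besides the 9 genes, the genes open to naming were the 3 of lowest P value of each list in each comparison, not all of which are named, and the 5 genes with the highest Pearson's r to each of the 9 genes. Ly6g, Stfa2l1, Mrgpra2b, Mmp8, Cxcl12, Csf1, Ptpn6, Ptpn11, Il4, Il13, Il6, Adgre1, Hba-a1, Krt10, Adipoq and Ly6c1, where outside that rule, were named after their values were seen. The code was tested on simulated data. Alternatives were other scalings, pseudocounts, filters, limma-voom, array weights, a fit of only the groups compared, marker scores as covariates, the replicate number as a block and leaving out libraries. Positions and shared 76-base windows come from GENCODE M21 (GRCm38), and promoters from RefSeq. Plots were made with matplotlib 3.10.9.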

Additional observations from a re-analysis of the deposited data

Results flagged for a closer look

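On the log2(normalized count + 1) scale, 2 of 36 sets of 4 values (9 genes in 4 groups) held a highest or lowest library (the highest in both) whose gap to the next, as a share of the range of the group, was above the 95% critical value of Dixon's test for 4 samples. On the scale of normalized counts, 11 sets did: S100a8 in the obese and both weight loss groups, S100a9 and Retnlg in both weight loss groups, Csf3r in DIO-VSG, Itgam in CON-LFD, and Il4ra in CON-LFD and DIO-HFD. For normally distributed values, chance gives about 1 in 20 such sets. Retnlg in DIO-VSG replicate 2 was at 569 normalized counts, against 19.7, 17.4 and 28.6 in replicates 1, 3 and 4. The same library was highest of all for S100a8 (2137), S100a9 (2905) and Csf3r (1708). Il4ra in DIO-HFD replicate 1 was at 10435 normalized counts, against 5514, 5384 and 5725 in the other DIO-HFD libraries. That library was also the highest of all for Cd33 (2550.2) and Ly6c2 (2326). Its adipocyte marker score was the lowest of all (-1.27, the next being -0.48), and its B and T cell scores were the highest (2.33 and 2.09).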

How the results depend on the processing

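Across 30 alternatives to the 54 fold changes (1620 values), 1526 kept their direction and side of the adjusted threshold, 11 passed it and 83 changed sign, and the changes of sign fell on 27 of the 54 fold changes. The number of the 9 genes called was 0 in each comparison, and it moved under the following alternatives, the cause of which was not tested. Array weights called 4 genes in DIO-HFD versus CON-LFD (S100a9 2.80, Cd33 0.93, Ly6c2 1.19 and Il4ra 0.75), 1 in DIO-VSG versus DIO-HFD (Nos2 -0.77, adjusted P = 0.0206) and 3 in DIO-VSG versus CON-LFD (S100a9 3.70, Ly6c2 1.38 and Il4ra 1.00). The same weights called 4196, 3739 and 4226 genes of the whole table in those comparisons. A fit of only the 8 libraries compared called 2 of the 9 genes in DIO-VSG versus DIO-LFD (Ly6c2, adjusted P = 0.0128, and Nos2, adjusted P = 0.0393) and 1533 genes of the whole table. Leaving out 1 library gave 0 to 1 in DIO-VSG versus CON-LFD (Il4ra without CON-LFD replicate 3, with 878 genes called in all) and 0 in the other comparisons. Over all 30 alternatives the adjusted P value of Nos2 ranged over 0.0206 to 0.7 in DIO-VSG versus DIO-HFD and 0.0393 to 0.795 in DIO-VSG versus DIO-LFD, and that of Ly6c2 in the latter over 0.0128 to 0.795. For the other genes that array weights called, this range was 0.0325 to 0.72 (S100a9), 0.0249 to 0.899 (Cd33), 0.0256 to 0.991 (Ly6c2) and 0.0373 to 0.674 (Il4ra) in DIO-HFD versus CON-LFD, and 0.0198 to 0.95 (S100a9) and 0.0236 to 0.996 (Ly6c2) in DIO-VSG versus CON-LFD. Low reads limited Retnlg, S100a8 and S100a9 in the lowest libraries.

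The labels give the groups the same replicate numbers but not that a number marks a shared litter or day. Deviations of same-numbered libraries from their group means had correlations of -0.61 to 0.53, and 7 of 16 libraries correlated best with a library of their own number. That number was not set against a chance value, so it cannot decide whether mice were paired. As the labels name no pairing, the main fit did not use the numbers. With the replicate number as a block, 0 of the 9 genes were called in each of the 6 comparisons, as without it.

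The fold changes that changed sign were these, apart from those on leaving out 1 library. In a fit of the 12 libraries with a B cell score above -2, chosen after seeing the data, these were 0.72 for Csf3r in DIO-HFD versus CON-LFD, -0.045 for Csf3r, -0.50 for Cd33, -0.20 for Ly6c2 and -0.15 for Il4ra in DIO-VSG versus DIO-HFD, -0.49 for Retnlg, -0.34 for Csf3r, -1.10 for Ly6c2 and 0.45 for Nos2 in DIO-LFD versus DIO-HFD, -0.20 for Cd33 and -0.34 for Ly6c2 in DIO-LFD versus CON-LFD. In a fit without DIO-LFD replicate 1 and DIO-VSG replicate 2, also chosen after seeing the data, these were -0.22 for S100a8, -0.39 for Retnlg, -0.058 for Csf3r and -0.089 for Cd33 in DIO-VSG versus DIO-HFD, -0.88 for Retnlg, -0.094 for Csf3r and -0.046 for Itgam in DIO-LFD versus DIO-HFD, -0.18 for Csf3r in DIO-VSG versus CON-LFD, -0.21 for Csf3r in DIO-LFD versus CON-LFD. With array weights these were 0.55 for Csf3r in DIO-HFD versus CON-LFD, -0.31 for Cd33 in DIO-VSG versus DIO-HFD, -0.38 for Retnlg, -0.23 for Csf3r, -0.70 for Ly6c2 and 0.19 for Nos2 in DIO-LFD versus DIO-HFD. With the keratinocyte marker score as a covariate these were -0.043 for S100a8 and -0.088 for Il4ra in DIO-VSG versus DIO-HFD, -0.26 for Retnlg in DIO-LFD versus DIO-HFD. With the lymphocyte marker score as a covariate these were -0.61 for Cd33, -0.014 for Ly6c2 and -0.24 for Il4ra in DIO-VSG versus DIO-HFD, -0.39 for Ly6c2 and 0.030 for Nos2 in DIO-LFD versus DIO-HFD, -0.060 for Cd33 in DIO-VSG versus DIO-LFD, -0.10 for Cd33 and 0.31 for Nos2 in DIO-VSG versus CON-LFD, -0.059 for Csf3r, -0.045 for Cd33 and -0.34 for Ly6c2 in DIO-LFD versus CON-LFD. With scaling to total reads these were 0.024 for Csf3r in DIO-HFD versus CON-LFD, -0.0089 for Cd33 in DIO-VSG versus DIO-HFD, -0.018 for Retnlg and -0.037 for Ly6c2 in DIO-LFD versus DIO-HFD. With limma-voom these were -0.0075 for Retnlg and -0.023 for Ly6c2 in DIO-LFD versus DIO-HFD.

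Leaving out 1 of the 16 libraries at a time also changed signs. In DIO-HFD versus CON-LFD, the range was -0.38 to 0.32 for Csf3r, -0.23 to 1.17 for Itgam and -0.11 to 0.91 for Ly6c2. In DIO-VSG versus DIO-HFD, the range was -0.17 to 0.26 for Cd33, -0.058 to 0.79 for Csf3r, -0.39 to 1.26 for Retnlg and -0.22 to 1.27 for S100a8. In DIO-LFD versus DIO-HFD, the range was -0.094 to 0.47 for Csf3r, -0.046 to 0.26 for Itgam, -0.38 to 0.54 for Ly6c2, -0.40 to 0.15 for Nos2, -0.88 to 0.76 for Retnlg, -0.86 to 0.19 for S100a8 and -0.97 to 0.34 for S100a9. In DIO-VSG versus DIO-LFD, the range was -0.27 to 0.60 for Csf3r and -0.45 to 1.66 for Retnlg. In DIO-VSG versus CON-LFD, the range was -0.18 to 0.83 for Csf3r and -0.98 to 0.42 for Itgam. In DIO-LFD versus CON-LFD, the range was -0.022 to 0.81 for Cd33, -0.21 to 0.53 for Csf3r and -0.11 to 1.29 for Itgam.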

Other observations

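Among genes that are not of the 9, some were high in few libraries only. Chil3, which encodes a chitinase-like protein of macrophages and neutrophils, was at 2331 normalized counts in DIO-LFD replicate 1 and 323 in DIO-VSG replicate 2, the libraries in which Retnlg was also highest (216 and 569), against at most 144 of Chil3 elsewhere. Cd177, a surface glycoprotein of neutrophils, was at 182 in DIO-VSG replicate 2 and 63.8 in DIO-HFD replicate 1, against at most 26.7 elsewhere. These genes were chosen after their values were seen and were not tested as a set.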
